A study of Mus musculus with 12 samples.

Results

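HH irradiation was compared with its own unirradiated controls in the intestine of mice, in 6 of the 12 RNA libraries of the study. All groups were female C57BL6/J mice, bought at 7 to 8 weeks of age and kept for 1 week before irradiation, and intestines were taken at 48 h. The 3 HH_WBI libraries came from mice given 10 Gy of electrons over the whole body (TBI in the paper) by a compact linear accelerator in HH mode, in which both the mean and the instantaneous dose rate are ultra-high. The 3 HH_Ctrl libraries are the untreated mice of that experiment, and the 3 LL_Ctrl libraries are the untreated mice set beside irradiation in LL mode, in which both dose rates are low and a clinical Elekta Infinity linac is used. The irradiated LL_WBI libraries were not used. The methods state that mice were anesthetized with avertin. The sources do not say whether each library is a separate mouse or whether the control groups were anesthetized, so p-values measure the spread between libraries only. Levels in LL_Ctrl, which entered neither the fold change nor the test against HH_Ctrl, are set beside the main findings.

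Ionizing radiation breaks DNA and stabilises the transcription factor p53, which induces genes for cell cycle arrest, DNA repair and apoptosis. In the small intestine the dividing cells sit in crypts at the base of the villi, next to Paneth cells that secrete antimicrobial proteins, and loss of crypt cells is followed by a regenerative state of the epithelium. Fibroblasts, vessels, macrophages and lymphocytes fill the lamina propria beneath it. Whole tissue RNA mixes all of these cells, so fewer cells of a type and less RNA per cell cannot be told apart.

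Expression was deposited for 22063 genes as FPKM, a read share corrected for the depth of the library and the length of the transcript, and the FPKM of a library summed to between 532489 and 572638 over the 9 libraries used. Read totals are not given, so the depth behind a value is unknown. Lct, the gene of lactase and a marker of small intestinal villi, was listed at 233 to 666 FPKM in all 9 libraries. Several libraries stood apart. HH_WBI 3 held ileal transcripts, with Fabp6, the ileal bile acid binding protein, at 586 FPKM against 8.75 and 0.701 FPKM in HH_WBI 1 and 2 and at most 2.59 FPKM in the controls. HH_Ctrl 2 lacked B cell follicle transcripts, with Cd79a, a subunit of the B cell receptor, at 2.45 FPKM against 27.4 and 29.5 FPKM in HH_Ctrl 1 and 3. HH_WBI 1 had the highest summed level of pancreatic genes, at 0.0265% of its FPKM against 0.00504% and 0.00453% in HH_WBI 2 and 3 and 0.00240% to 0.00322% in HH_Ctrl.

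Many genes differed between HH_WBI and HH_Ctrl. Of 12760 genes whose HH_WBI and HH_Ctrl libraries averaged 0.5 FPKM or more, 1280 (10.0%) were called higher and 304 (2.38%) lower in HH_WBI, where a call needs a Benjamini-Hochberg adjusted p under 0.05 with limma and a log2 difference beyond 1 in size. The adjusted p alone was passed by 2817 genes (22.1%) that were higher and 1797 (14.1%) that were lower. Fold changes are on the log2(FPKM + 0.1) scale, which understates those of low genes. The median of all genes tested was 0.09, and it became -0.02 with median-ratio scaling and -0.08 once trends on GC content and transcript length were removed. Higher genes made up 80.8% of the calls, 70.1% after median-ratio scaling and 64.4% after trend removal. List medians below are read against the median of 0.09, and list counts against the 10.0% called higher and 2.38% called lower.

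The untreated groups differed from each other. HH_Ctrl was called higher than LL_Ctrl for 291 (2.31%) and lower for 1499 (11.9%) of 12595 genes. Among the 1280 genes called higher in HH_WBI, all 3 HH_WBI libraries lay above all 6 control libraries for 613 (47.9%), overlapped LL_Ctrl for 580 (45.3%) and lay below all LL_Ctrl libraries for 84 (6.56%). Among the 304 genes called lower, 237 (78.0%) lay below all 6 controls and 57 (18.8%) overlapped LL_Ctrl. The genes both called and beyond all 6 controls are 4.80% (higher) and 1.86% (lower) of all tested. Over all genes tested, 1282 (10.0%) lay above and 1850 (14.5%) lay below all 6 controls, whether called or not. Against LL_Ctrl itself, 631 of 12872 genes (4.90%) were called higher and 634 (4.93%) lower in HH_WBI. Counts of list members called against LL_Ctrl are read against these 2 shares. Irradiator, control group and any difference in handling between the experiments cannot be told apart in these comparisons.

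**Figure D1:**
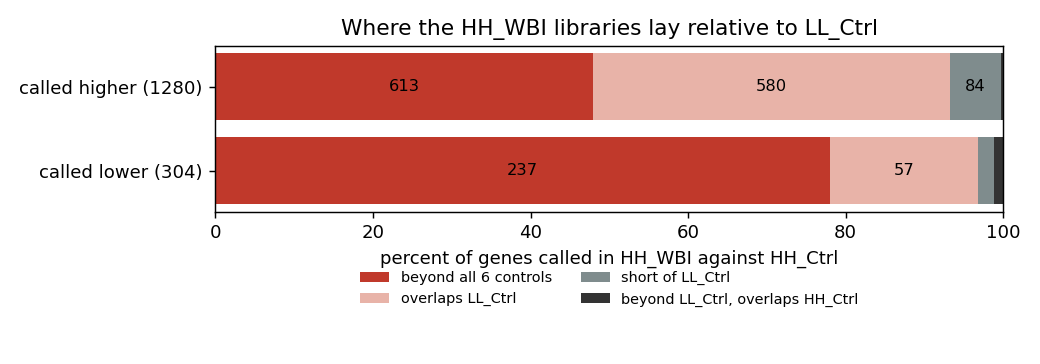
Percent of the genes called higher (1280) and lower (304) in HH_WBI against HH_Ctrl, split by where the HH_WBI libraries stood relative to the LL_Ctrl libraries, with the number of genes in each larger segment. Genes beyond all 6 controls make up 47.9% of the higher calls and 78.0% of the lower calls.

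Most p53 target genes stood above both control groups. Of 37 p53 target genes tested, 20 were called higher and none lower against HH_Ctrl, with a median log2 difference of 1.10, and 27 lay above all 6 controls. Against LL_Ctrl 18 were called higher and 1 lower, with a median of 0.92. The median stayed between 1.00 and 1.10 with each library left out.

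Phlda3 (ENSMUSG00000041801), a p53-induced repressor of Akt signalling, stood at 24.9, 22.6 and 24.5 FPKM in HH_WBI 1 to 3, at 1.47, 1.60 and 2.22 FPKM in HH_Ctrl and at 2.38, 2.48 and 3.24 FPKM in LL_Ctrl. The irradiated libraries lay far above both control groups, and the log2 difference from HH_Ctrl was 3.71 ± 0.17 (SE, adjusted p = 0.000214 with limma). Psrc1, which encodes a spindle protein, stood at 16.6, 15.2 and 13.97 FPKM in HH_WBI against 1.70, 1.44 and 1.42 FPKM in HH_Ctrl and 2.17, 1.49 and 1.44 FPKM in LL_Ctrl. Its control groups overlapped each other, and it rose by a log2 of 3.24 ± 0.15 (adjusted p = 0.000214 with limma). The stress-induced kinase gene Plk2 rose by 3.24 ± 0.21, from 1.24, 1.34 and 2.06 FPKM in HH_Ctrl to 16.3, 15.7 and 13.5 FPKM, with LL_Ctrl at 2.33, 1.82 and 3.25 FPKM (adjusted p = 0.000353 with limma). Ccng1, the gene of cyclin G1, stood at 63.8, 54.0 and 43.0 FPKM in HH_WBI, at 7.50, 6.87 and 5.65 FPKM in HH_Ctrl and at 17.1, 22.4 and 21.2 FPKM in LL_Ctrl. Here the choice of control set the size of the change, since the log2 difference was 2.98 from HH_Ctrl and 1.39 from LL_Ctrl.

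Several p53 targets often measured after irradiation had smaller differences. Mdm2, the ubiquitin ligase that degrades p53, stood at 25.03, 23.3 and 17.9 FPKM in HH_WBI, at 7.70, 6.13 and 7.85 FPKM in HH_Ctrl and at 15.6, 14.3 and 14.4 FPKM in LL_Ctrl. Bax, the pore-forming protein of the mitochondrial death pathway, stood at 53.8, 59.2 and 56.3 FPKM, against 24.5, 27.8 and 26.7 FPKM in HH_Ctrl and 23.7, 22.1 and 24.4 FPKM in LL_Ctrl. Both were called, with log2 differences of 1.59 ± 0.17 (adjusted p = 0.00108 with limma) for Mdm2 and 1.10 ± 0.10 (adjusted p = 0.000854 with limma) for Bax, which sat just above the limit and was 0.99 with median-ratio scaling. Cdkn1a, the cell cycle inhibitor p21, was high in every group, at 233, 213 and 267 FPKM in HH_WBI, 190, 145 and 207 FPKM in HH_Ctrl and 114, 115 and 101 FPKM in LL_Ctrl. The difference from HH_Ctrl was 0.40 ± 0.16 and missed the threshold (adjusted p = 0.0832 with limma), whereas that from LL_Ctrl was 1.11 and was called. Trp53 itself differed from HH_Ctrl by -0.12 (adjusted p = 0.413 with limma). Of the remaining members, Eda2r, a receptor of the tumor necrosis factor family picked here after its values were seen, was below 0.1 FPKM in each HH_Ctrl library and at 3.05, 1.95 and 1.83 FPKM in HH_WBI.

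Promoters were searched for the p53 consensus site, the sequence that this factor is known to bind. The motif has 20 bases in 2 half-sites with no spacer, and a match kept its 4 fixed core positions and had at most 2 mismatches elsewhere on either strand of the window from 250 bases before to 50 bases after the start (RefSeq, GRCm38.p6). Among 32851 promoters 107 (0.326%) held a match, which is 106 of 27025 genes (0.392%). Of the p53 targets 29 genes matched a promoter by symbol and 4 of these genes held a site, among them 3 of the 18 matched genes called higher. Cdkn1a and Gtse1 each had another listed promoter, at a different start, that held no match. The matched stretches are shown 5′ to 3′ on the strand of the gene and upstream of the matched start, with the site in capitals.
Ccng1, chr11:40755422-40755521, minus strand: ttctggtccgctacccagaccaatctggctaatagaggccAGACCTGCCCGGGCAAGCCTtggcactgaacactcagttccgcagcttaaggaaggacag
Cdkn1a, chr17:29090888-29090978, plus strand: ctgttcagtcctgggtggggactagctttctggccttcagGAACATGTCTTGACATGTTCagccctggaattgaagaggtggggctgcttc
Ckap2, chr8:22185963-22186062, minus strand: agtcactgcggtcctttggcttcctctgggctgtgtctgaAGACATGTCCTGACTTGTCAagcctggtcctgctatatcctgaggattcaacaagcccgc
The site of the 4th gene, Gtse1, spans its start and reads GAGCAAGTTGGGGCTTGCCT. Ckap2 and Gtse1, both genes of spindle and mitotic proteins shown because they hold a site, rose by log2 differences of 1.58 and 1.59, Ccng1 by 2.98, and Cdkn1a was the matched gene that missed the threshold. A match describes the letters of a window and does not show binding.

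**Figure D2:**
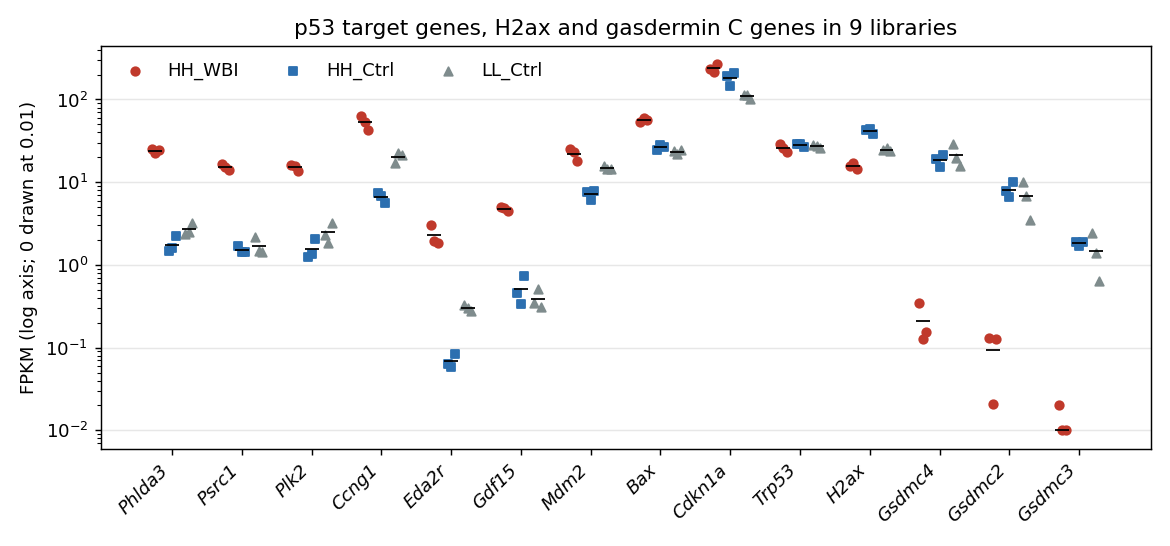
FPKM on a log axis of p53 targets, Trp53, H2ax and 3 gasdermin C genes in each HH_WBI (circles), HH_Ctrl (squares) and LL_Ctrl (triangles) library, with a bar at each group mean and values of 0 drawn at 0.01. Phlda3 lies at 22.6 to 24.9 FPKM in HH_WBI against at most 3.24 FPKM in the controls, while Gsdmc4 lies at or below 0.348 FPKM in HH_WBI against 15.5 FPKM or more.

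The gasdermin C genes, which encode pore-forming proteins of the epithelium and lie next to each other as close copies, fell to near 0 FPKM. The 3 of 4 members in the table that passed the filter were all called lower, with a median log2 difference of -5.46 from HH_Ctrl. Gsdmc4 (ENSMUSG00000055748) stood at 0.348, 0.127 and 0.156 FPKM in HH_WBI against 19.04, 15.5 and 21.1 FPKM in HH_Ctrl and 29.1, 19.6 and 15.5 FPKM in LL_Ctrl, a log2 difference from HH_Ctrl of -5.96 ± 0.29 (adjusted p = 0.000214 with limma). The irradiated libraries of Gsdmc2 lay at 0.131, 0.0210 and 0.126 FPKM and those of Gsdmc3 at 0.02, 0 and 0 FPKM, where the pseudocount sets the fitted size. Reads of near-identical copies can be assigned to any of them, so the split among the members is uncertain while the level of the group as a whole fell.

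Hemoglobin transcripts fell as well. The 4 of 10 globin and erythroid genes that passed the filter were all called lower and below all 6 controls, with a median of -3.76. Hbb-bs, an adult beta-globin gene, stood at 3.42, 0.709 and 1.16 FPKM in HH_WBI, at 14.5, 15.5 and 34.1 FPKM in HH_Ctrl and at 38.7, 27.3 and 77.1 FPKM in LL_Ctrl. Hba-a1 and Hba-a2, near-identical copies of alpha-globin, had log2 differences of -3.83 and -3.62. The blood content of the samples is not given, and its part was not tested.

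Genes of the dividing crypt were lower than in HH_Ctrl more often than higher. Of 32 mitosis genes 2 were called lower and none higher, with a median of -0.44, and of 35 DNA replication genes 3 were called lower and none higher, with a median of -0.34. Over all genes tested 2.38% were called lower, and by the adjusted p alone 14.1% were lower and 22.1% higher. By the adjusted p alone 13 mitosis and 11 replication genes were lower and 1 of each was higher. Below all 6 controls lay 9 mitosis and 8 replication genes, against 14.5% of all genes, and 1 replication gene lay above them. Against LL_Ctrl 3 mitosis and 2 replication genes were called lower and none higher, with medians of -0.46 and -0.18. The 2 mitosis calls became 4 under median-ratio scaling, 6 after trend removal, 1 with a pseudocount of 1 or without HH_Ctrl 2, and 4 without HH_Ctrl 3. The 3 replication calls became 1 with a pseudocount of 1, without HH_Ctrl 2 or without HH_WBI 2. Cdk1, the kinase that drives entry into mitosis, stood at 11.97, 14.4 and 12.9 FPKM in HH_WBI against 26.5, 31.4 and 29.1 FPKM in HH_Ctrl and 28.8, 24.8 and 22.3 FPKM in LL_Ctrl, and fell by a log2 of 1.14 (adjusted p = 0.00108 with limma). Tk1, the thymidine kinase of replicating cells, stood at 5.31 to 6.36 FPKM in HH_WBI, below the 17.1 to 19.4 FPKM of HH_Ctrl and the 11.5 to 14.6 FPKM of LL_Ctrl (-1.63 ± 0.12 from HH_Ctrl, adjusted p = 0.000776 with limma). Mki67, which encodes the proliferation antigen Ki-67, stood at 6.10, 6.91 and 2.64 FPKM in HH_WBI, at 9.91, 9.20 and 6.63 FPKM in HH_Ctrl and at 6.07, 4.98 and 4.37 FPKM in LL_Ctrl. HH_WBI overlapped both groups for Mki67, and the difference of -0.80 was not called (adjusted p = 0.112 with limma), though it was -1.22 and was called (adjusted p = 0.0173 with limma) after the trends on GC content and length had been taken out. H2ax, the histone variant that is phosphorylated at DNA breaks, stood at 15.7, 17.2 and 14.6 FPKM in HH_WBI, 42.9, 44.4 and 38.8 FPKM in HH_Ctrl and 24.4, 26.1 and 23.7 FPKM in LL_Ctrl. The transcript of H2ax was thus below both control groups, by -1.40 ± 0.11 from HH_Ctrl (adjusted p = 0.000776 with limma), and HH_Ctrl lay above LL_Ctrl.

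Stem cell genes did not move together. Among 19 crypt stem cell genes 2 were called higher and 1 lower, with a median of 0.21, and 1 was called higher without HH_WBI 1. These counts stand beside 10.0% called higher and 2.38% called lower over all genes tested. Olfm4, a secreted glycoprotein of crypt base columnar cells, stood at 34.4, 40.4 and 17.95 FPKM in HH_WBI, 93.2, 126 and 82.5 FPKM in HH_Ctrl and 273, 276 and 254 FPKM in LL_Ctrl. The 3 groups did not overlap, and the difference from HH_Ctrl was -1.75 ± 0.30 (adjusted p = 0.0047 with limma). Sox9, a transcription factor of progenitors, rose by 1.58 ± 0.21 to 7.73, 5.33 and 5.75 FPKM, above all 6 controls (adjusted p = 0.00206 with limma). Lgr5, the receptor that marks cycling stem cells and which was singled out after its values were seen, stood at 1.46, 0.686 and 1.26 FPKM in HH_WBI and 0.981, 1.08 and 1.28 FPKM in HH_Ctrl, with a difference of -0.03 and both groups below the 1.91 to 2.14 FPKM of LL_Ctrl.

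Many genes of the fetal-like and regenerating epithelium rose. Of 27 tested, 15 were called higher and 1 lower against HH_Ctrl, the median was 1.36, and 15 lay above all 6 controls. Against LL_Ctrl 10 were called higher and 2 lower (median 0.88). The summed share of FPKM was 0.486% to 0.590% in HH_WBI, 0.345% to 0.453% in HH_Ctrl and higher in LL_Ctrl, at 0.700% to 0.785%. Between the controls, HH_Ctrl was called higher than LL_Ctrl for 6 and lower for 9 of the 27 genes. Il1rn, the antagonist of the interleukin 1 receptor, stood at 14.9, 14.1 and 15.6 FPKM in HH_WBI, 0.606, 0.762 and 1.08 FPKM in HH_Ctrl and 2.75, 3.16 and 3.60 FPKM in LL_Ctrl, a difference from HH_Ctrl of 4.06 ± 0.21 (adjusted p = 0.000214 with limma). Ereg and Areg, ligands of the epidermal growth factor receptor, rose by 3.57 and 2.82. Ereg lay at 5.63, 5.15 and 6.58 FPKM in HH_WBI against 0.382 to 0.397 FPKM in HH_Ctrl and 1.21 to 1.31 FPKM in LL_Ctrl. Ly6a, the surface protein Sca-1 that marks regenerating crypts in mice, rose by 2.02 ± 0.15 to 62.9, 62.9 and 73.3 FPKM, above the 25.7 to 32.3 FPKM of LL_Ctrl (adjusted p = 0.000747 with limma). The member called lower was Msln, the mesothelial protein mesothelin, at 1.18, 0.485 and 0.405 FPKM against 3.58, 3.95 and 4.76 FPKM in HH_Ctrl, and it overlapped LL_Ctrl. Clu, often used as a marker of revival stem cells, followed the B cell split among the HH_Ctrl libraries, at 10.3 FPKM in HH_Ctrl 2 and 70.5 and 80.5 FPKM in HH_Ctrl 1 and 3, and was not called.

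Nuclear genes of the respiratory chain and of the ribosome were mostly lower in HH_WBI, by amounts that varied between genes. Log2 differences ran from -1.33 to -0.05 in complex I and from -1.19 to 0.06 in complexes II to V. They ran from -1.27 to 0.16 in cytosolic and from -1.04 to 0.69 in mitochondrial ribosomal proteins. Of 38 nuclear complex I genes, 5 were called lower and none higher, but 35 were lower by the adjusted p alone and 36 lay below all 6 controls, with a median of -0.71. Of 41 nuclear genes of complexes II to V, 8 were called lower and none higher, 40 were lower by the adjusted p alone and 40 lay below all 6 controls, with a median of -0.80. Against LL_Ctrl 14 and 18 of these genes were called lower and none higher, with medians of -0.94 and -0.89. The number called moved with the setting. In complex I it became 10 under median-ratio scaling, after trend removal or without HH_WBI 2, and 3 without HH_WBI 3. In complexes II to V it became 15 after trend removal and 3 without HH_WBI 1. Ndufb11, an accessory subunit of complex I, stood at 39.9, 51.3 and 46.4 FPKM in HH_WBI, 107, 115 and 125 FPKM in HH_Ctrl and 112, 102 and 104 FPKM in LL_Ctrl, a difference from HH_Ctrl of -1.33 ± 0.12 (adjusted p = 0.000932 with limma). Atp5g2, a membrane subunit of the ATP synthase, had a difference of -1.07 ± 0.10 from HH_Ctrl (adjusted p = 0.000893 with limma) and stood at 79.1 to 88.2 FPKM in HH_WBI against 148 to 172 FPKM in LL_Ctrl. Of the 13 genes encoded by mitochondrial DNA none was called, none lay beyond all 6 controls, and the median was -0.28. That median ran from -0.44 without HH_Ctrl 3 to 0.03 without HH_WBI 3, and 1 gene, mt-Nd4l, was called lower after trend removal. Whether these genes differed from the nuclear ones was not tested. Their summed share of FPKM overlapped between the groups, at 8.51% to 14.2% in HH_WBI and 9.34% to 14% in HH_Ctrl.

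Cytosolic ribosomal protein genes had a median of -0.71 over 78 genes tested, with 5 called lower and none higher, 75 lower by the adjusted p alone and 74 below all 6 controls. Against LL_Ctrl 2 were called lower (median -0.55). Together they took 4.10%, 4.25% and 4.31% of FPKM in HH_WBI, 6.22%, 6.65% and 6.91% in HH_Ctrl and 5.60% to 6.24% in LL_Ctrl. Rpl10a, of the large subunit, stood at 224, 230 and 255 FPKM in HH_WBI against 497, 582 and 639 FPKM in HH_Ctrl and 474, 437 and 416 FPKM in LL_Ctrl (-1.27 ± 0.14, adjusted p = 0.00112 with limma). Many ribosomal protein genes have near-identical processed copies that can share their reads. Mitochondrial ribosomal proteins, 78 genes tested, had a median of -0.54, with 2 called lower, 53 lower by the adjusted p alone and 57 below all 6 controls, and against LL_Ctrl 6 were called lower (median -0.61). Here too the number of calls moved. The 5 cytosolic calls became 12 under median-ratio scaling, 20 after trend removal, 10 without HH_Ctrl 1 and 8 without HH_WBI 3. The 2 mitochondrial calls became 10 after trend removal, 3 under median-ratio scaling, 1 with a pseudocount of 1 or without HH_Ctrl 2 or HH_Ctrl 3, and none without HH_WBI 3. The proteasome was mixed by the adjusted p alone, with 6 of its 31 subunits higher and 13 lower and a median of -0.17. Below all 6 controls lay 15 of the 31 and above them none, against 14.5% and 10.0% of all genes tested. Against LL_Ctrl no proteasome subunit was called (median -0.34). The medians of both respiratory lists and both ribosomal lists were negative under each scaling tried and with each library left out. FPKM is a share of the library, and some stromal lists rose in the same libraries. Collagen genes took 0.0435% to 0.0815% of FPKM in HH_WBI, 0.0104% to 0.0122% in HH_Ctrl and 0.0252% to 0.0374% in LL_Ctrl. The part of cell composition in the lower respiratory and ribosomal levels was not tested.

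**Figure D3:**
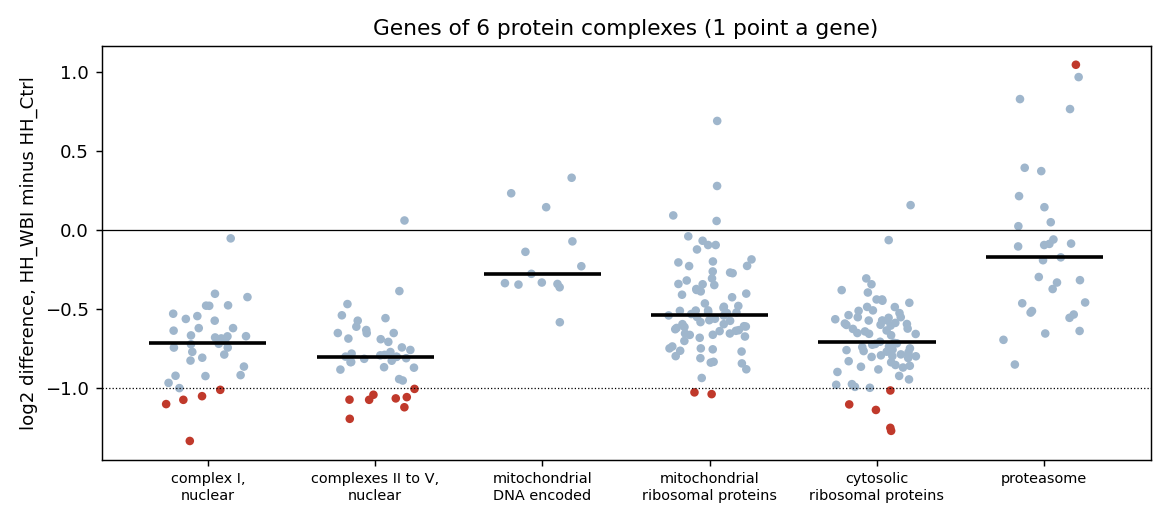
Log2 difference of HH_WBI from HH_Ctrl for each tested gene of 6 groups of complexes (1 point a gene, red where called, black bar at the median, dotted line at -1). The nuclear respiratory genes and the cytosolic ribosomal proteins lie in bands around -0.71 to -0.80, whereas the mitochondrial DNA encoded genes and the proteasome have medians of -0.28 and -0.17.

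Some detoxification genes of the enterocyte were lower than in HH_Ctrl. Of 35 conjugating enzymes tested against HH_Ctrl 7 were called lower and 1 higher (median -0.46), and of 36 tested against LL_Ctrl 23 were called lower and 1 higher (median -1.58). Over all genes tested 2.38% were called lower and 10.0% higher against HH_Ctrl, and 4.93% lower and 4.90% higher against LL_Ctrl. The 7 calls became 3 without HH_Ctrl 1 and 4 without HH_Ctrl 2 or without HH_WBI 3. Mgst3, a microsomal glutathione transferase, stood at 154, 166 and 120 FPKM in HH_WBI, 424, 460 and 458 FPKM in HH_Ctrl and 381, 336 and 374 FPKM in LL_Ctrl (-1.62 ± 0.14, adjusted p = 0.000854 with limma). Among 21 cytochrome P450 genes 4 were called lower and 1 higher (median -0.11), with 2 lower without HH_Ctrl 2 or without HH_WBI 3, and against LL_Ctrl 9 were called lower and 4 higher (median -0.49). Cyp2b10, a drug-inducible P450, fell to 85.5, 155 and 53.3 FPKM from 410, 476 and 410 FPKM in HH_Ctrl, with LL_Ctrl at 307 to 433 FPKM (-2.27 ± 0.34, adjusted p = 0.00291 with limma). Cyp2c66 shows how far apart the controls were, at 2.70, 1.77 and 0.958 FPKM in HH_WBI, 4.97, 5.74 and 5.81 FPKM in HH_Ctrl and 81.4, 116 and 151 FPKM in LL_Ctrl. Adh4, an alcohol dehydrogenase, had the same order, with log2 differences of -2.86 from HH_Ctrl and -5.13 from LL_Ctrl. The NRF2 antioxidant list had 4 of 19 genes called higher, 1 lower and a median of 0.01, and against LL_Ctrl 4 called higher and 2 lower. Hmox1, heme oxygenase, rose by 2.72 ± 0.27 to 10.3, 11.4 and 6.41 FPKM, with LL_Ctrl at 2.32 to 2.70 FPKM. Ephx1, an epoxide hydrolase, rose by 2.72 ± 0.29 and Akr1b8, an aldo-keto reductase, by 1.71 ± 0.23, and these 3 genes lay above all 6 controls (adjusted p = 0.00103, 0.00114 and 0.00214 with limma). The member called lower was Akr1b7, another aldo-keto reductase, at 22.6, 117 and 64.4 FPKM in HH_WBI, 303, 241 and 177 FPKM in HH_Ctrl and 131, 98.9 and 136 FPKM in LL_Ctrl. It was lower by a log2 difference of -2.08 ± 0.53 (adjusted p = 0.0201 with limma), overlapped LL_Ctrl, and was not called without HH_Ctrl 1 or without HH_Ctrl 2.

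Some genes of fasting were lower than in HH_Ctrl, and among these Pck1 and Angptl4 were near the level of LL_Ctrl. Of 24 fasting and PPAR alpha genes 7 were called lower and 1 higher (median -0.80), and 9 lay below all 6 controls. Against LL_Ctrl 7 were called lower and none higher (median -0.65). Pck1, the gluconeogenic enzyme PEPCK, stood at 82.4, 205 and 89.3 FPKM in HH_WBI, 532, 415 and 408 FPKM in HH_Ctrl and 92.1, 109 and 90.8 FPKM in LL_Ctrl, and HH_WBI overlapped LL_Ctrl. Angptl4, an inhibitor of lipoprotein lipase, had log2 differences of -2.28 from HH_Ctrl and -0.39 from LL_Ctrl. Acaa2, a thiolase of fatty acid oxidation named after its values were seen, was lower than both, at 53.8, 76.2 and 34.2 FPKM against 140 to 211 FPKM in HH_Ctrl and 148 to 184 FPKM in LL_Ctrl. Feeding state and time of day of the groups are not given, and their part was not tested.

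The pair of enzymes that interconvert active and inactive glucocorticoid moved in opposite directions. Of 17 glucocorticoid activation and response genes, 2 were called higher and 4 lower against HH_Ctrl (median -0.42). Against LL_Ctrl 8 of them were called higher and 2 lower (median 0.30), and HH_Ctrl was itself called higher than LL_Ctrl for 8. Hsd11b1, which produces active corticosterone, stood at 19.2, 12.5 and 14.7 FPKM in HH_WBI, 1.16, 0.845 and 1.37 FPKM in HH_Ctrl and 4.23, 3.08 and 4.30 FPKM in LL_Ctrl. Hsd11b2, which inactivates it, stood at 0.916, 0.548 and 1.20 FPKM, against 5.81, 6.94 and 6.24 FPKM in HH_Ctrl and 2.23, 2.60 and 1.93 FPKM in LL_Ctrl. Both lay beyond all 6 controls, with log2 differences from HH_Ctrl of 3.67 ± 0.23 (adjusted p = 0.000325 with limma) and -2.75 ± 0.27 (adjusted p = 0.00103 with limma), and with LL_Ctrl between the other groups.

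**Figure D4:**
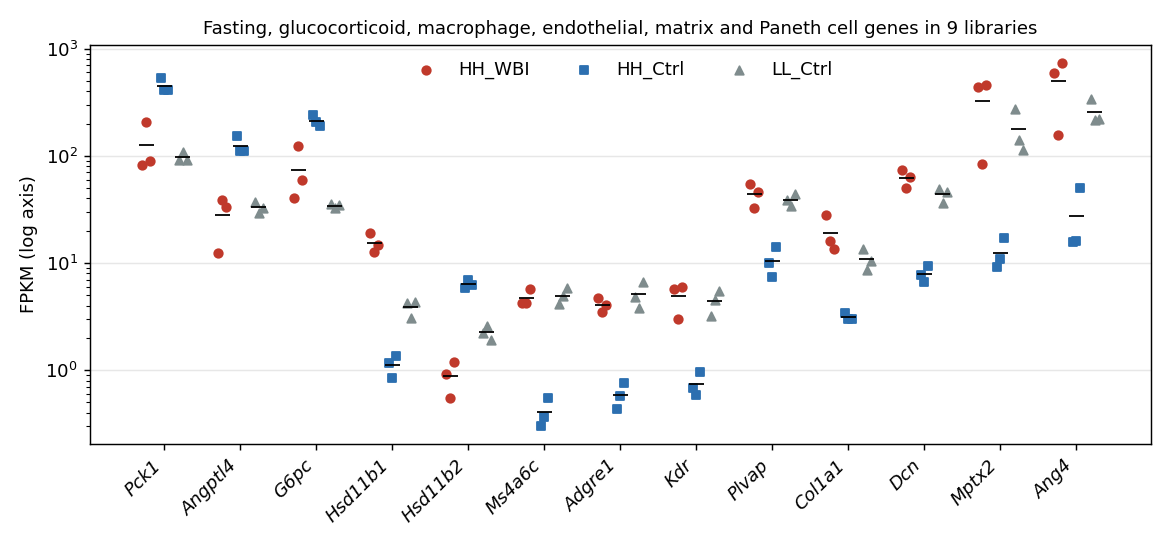
FPKM on a log axis of fasting, glucocorticoid, macrophage, endothelial, matrix and Paneth cell genes in each HH_WBI (circles), HH_Ctrl (squares) and LL_Ctrl (triangles) library, with a bar at each group mean. Pck1 lies at 82.4 to 205 FPKM in HH_WBI, 90.8 to 109 FPKM in LL_Ctrl and 408 to 532 FPKM in HH_Ctrl, while Hsd11b1 is highest in HH_WBI and Hsd11b2 lowest.

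Many collagen, matrix, fibroblast, endothelial and macrophage genes were higher than in HH_Ctrl, and fewer of them were called against LL_Ctrl. Of 17 collagen genes 16 were called higher and none lower (median 2.19), 9 lay above all 6 controls, and 6 were called higher against LL_Ctrl (median 0.78). Of 31 matrix glycoproteins and proteoglycans 22 were called higher (median 1.83), and of 32 tested against LL_Ctrl 7. The 25 fibroblast and telocyte genes tested had 16 called higher and 3 lower (median 1.36), and the 24 tested against LL_Ctrl had 9 higher and 2 lower. Macrophage genes had 21 of 27 called higher (median 1.79), but only 2 against LL_Ctrl (median 0.23). Of 24 endothelial genes 20 were called higher against HH_Ctrl (median 1.71) and none of 25 in either direction against LL_Ctrl (median 0.06). Above all 6 controls lay 15 matrix, 10 fibroblast and telocyte, 10 macrophage and 4 endothelial genes, and 3 fibroblast and telocyte genes lay below. Over all genes tested 10.0% lay above all 6 controls. Smooth muscle genes had 2 of 23 called higher and 2 lower (median -0.15), and genes of enteric neurons, glia and Cajal cells had 2 of 17 called higher and none lower (median 0.13). HH_Ctrl was itself called lower than LL_Ctrl for 20 of 25 macrophage genes, 20 of 25 endothelial genes and 13 of 16 collagen genes tested between the controls.

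Pdgfra, the receptor of villus and crypt fibroblasts, stood at 16.7, 8.95 and 11.5 FPKM in HH_WBI, at 1.83, 1.24 and 1.90 FPKM in HH_Ctrl and at 4.58, 3.62 and 4.80 FPKM in LL_Ctrl. It was above both control groups, by 2.803 ± 0.26 from HH_Ctrl (adjusted p = 0.000996 with limma). Dcn, the collagen-binding proteoglycan decorin, stood at 74.5, 50.4 and 63.1 FPKM in HH_WBI, 7.65, 6.64 and 9.38 FPKM in HH_Ctrl and 49.1, 36.0 and 45.7 FPKM in LL_Ctrl. Its log2 difference was 2.97 from HH_Ctrl and 0.52 from LL_Ctrl, so most of the distance lay between the untreated groups. Sfrp1, a secreted antagonist of Wnt signals, and Bmp4, a ligand of villus mesenchyme, rose by 3.22 and 2.56 and lay above all 6 controls. The R-spondin gene Rspo1, a Wnt amplifier named after its values were seen, went the other way, at 0.165, 0.114 and 0.169 FPKM against 1.15, 0.737 and 1.16 FPKM in HH_Ctrl and 0.768, 0.457 and 0.722 FPKM in LL_Ctrl.

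Adgre1, the macrophage antigen F4/80, stood at 4.67, 3.48 and 4.05 FPKM in HH_WBI, 0.431, 0.568 and 0.755 FPKM in HH_Ctrl and 4.81, 3.81 and 6.69 FPKM in LL_Ctrl. HH_WBI and LL_Ctrl overlapped and HH_Ctrl stood apart below them (2.62 ± 0.25, adjusted p = 0.00103 with limma). Mrc1, the mannose receptor CD206 of resident macrophages, was at 2.93, 2.55 and 2.78 FPKM in HH_WBI against 0.210 to 0.312 FPKM in HH_Ctrl and 1.63, 1.70 and 2.23 FPKM in LL_Ctrl. Kdr, the VEGF receptor of endothelium, gave 5.73, 2.998 and 5.96 FPKM in HH_WBI, 0.687, 0.583 and 0.965 FPKM in HH_Ctrl and 3.18, 4.56 and 5.49 FPKM in LL_Ctrl, with HH_WBI overlapping LL_Ctrl.

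**Figure D5:**
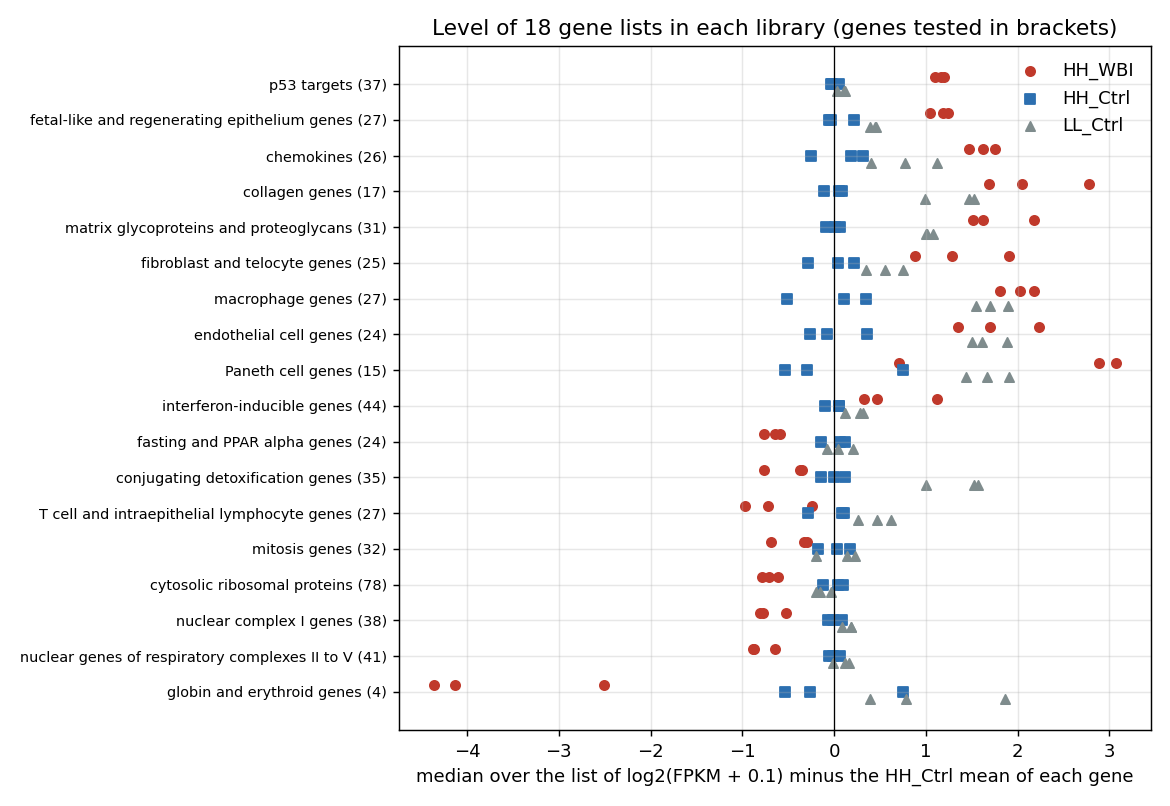
Level of 18 gene lists in each library, as the median over the tested genes of log2(FPKM + 0.1) minus each gene's HH_Ctrl mean, for HH_WBI (circles), HH_Ctrl (squares) and LL_Ctrl (triangles). The p53 targets of HH_WBI stand clear of all controls, macrophage and endothelial genes of HH_WBI overlap LL_Ctrl, and Paneth cell genes of HH_WBI 2 lie within the range of HH_Ctrl.

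Paneth cell genes depended on both the library and the control group. Of 15 tested, 8 were called higher and none lower against HH_Ctrl (median 2.31), none lay above all 6 controls, and 2 were called higher and 1 lower against LL_Ctrl. Mmp7, the protease that activates Paneth cell defensins, stood at 297, 94.3 and 351 FPKM in HH_WBI, 21.6, 30.7 and 54.4 FPKM in HH_Ctrl and 118, 70.6 and 67.8 FPKM in LL_Ctrl. Mptx2, a pentraxin of Paneth cells and the list's highest change, had a log2 difference of 4.40 ± 0.62 from HH_Ctrl (adjusted p = 0.00245 with limma) and overlapped LL_Ctrl, as did Ang4, an antimicrobial ribonuclease (4.12 ± 0.65, adjusted p = 0.00346 with limma). HH_WBI 2 was the lowest of the HH_WBI libraries for Mmp7, Mptx2 and Ang4, with the list at 0.919% of FPKM against 3.50% and 4.97% in HH_WBI 1 and 3, 0.370% to 1.05% in HH_Ctrl and 1.46% to 2.04% in LL_Ctrl. The list median was between 1.84 and 3.002 with each library left out, and the 8 calls became 14 without HH_WBI 2, 5 without HH_WBI 3 or HH_Ctrl 2 and 4 without HH_WBI 1 or HH_Ctrl 1. Paneth cell defensins and lysozymes are families of close copies, and the split of reads among them is uncertain.

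Many chemokine genes rose. Of 26 tested against HH_Ctrl, 14 were called higher and 1 lower (median 1.53) and 10 lay above all 6 controls, and of 28 tested against LL_Ctrl 11 were called higher and 3 lower. Ccl11, the eosinophil attractant eotaxin, stood at 31.9, 17.7 and 20.8 FPKM in HH_WBI, 0.405, 0.417 and 0.696 FPKM in HH_Ctrl and 12.7, 10.95 and 12.4 FPKM in LL_Ctrl. Its log2 difference was 5.27 ± 0.28 from HH_Ctrl (adjusted p = 0.000214 with limma) and 0.91 from LL_Ctrl, which was not called. Ccl8, a ligand of monocytes and eosinophils, stood at 5.83, 9.53 and 6.99 FPKM in HH_WBI against 0.546, 0.0740 and 0.347 FPKM in HH_Ctrl and 1.10, 1.15 and 0.669 FPKM in LL_Ctrl (4.33 ± 0.47, adjusted p = 0.00119 with limma). The monocyte attractants Ccl2 and Ccl7, named after their values were seen, were each above all 6 controls, and Ccl2 stood at 4.36, 6.51 and 1.34 FPKM against at most 0.109 FPKM in HH_Ctrl and 0.594 FPKM in LL_Ctrl. Cxcl12, made by stromal cells, rose by 2.499 to 23.9, 17.6 and 20.9 FPKM, with LL_Ctrl at 9.68 to 10.2 FPKM. Cxcl13, which draws B cells to follicles, rose by 3.10 ± 0.62 (adjusted p = 0.00802 with limma), to 24.6, 27.0 and 11.99 FPKM from 3.64, 0.719 and 4.05 FPKM in HH_Ctrl, with LL_Ctrl at 0.706 to 1.13 FPKM. Tnf, which encodes tumor necrosis factor, stood at 2.58, 3.51 and 2.18 FPKM in HH_WBI, 0.376, 0.642 and 0.514 FPKM in HH_Ctrl and 0.663, 0.715 and 1.12 FPKM in LL_Ctrl (2.22 ± 0.28, adjusted p = 0.00173 with limma). Il6 and Il10 were under the filter: Il6 was listed at 1.02, 1.16 and 0.205 FPKM in HH_WBI and at 0.224, 0 and 0 FPKM in HH_Ctrl, and Il10 stayed below 0.1 FPKM in all 6 of these libraries.

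Interferon-inducible genes gave 16 of 44 called higher and 1 lower against HH_Ctrl (median 0.62), and 2 higher and 1 lower against LL_Ctrl. Ifi211, a sensor of the PYHIN family, stood at 3.95, 3.77 and 3.004 FPKM in HH_WBI, above the 0.136 to 0.242 FPKM of HH_Ctrl and the 1.04 to 1.96 FPKM of LL_Ctrl (3.73 ± 0.27, adjusted p = 0.00074 with limma). Cxcl10, a T cell attractant, was called against HH_Ctrl (2.24 ± 0.23, adjusted p = 0.00108 with limma) and overlapped LL_Ctrl. Gvin1, a very large interferon-inducible GTPase, fell by a log2 of 2.97, from 25.2, 27.5 and 15.0 FPKM in HH_Ctrl to 4.70, 3.62 and 1.13 FPKM, below the 8.85 to 12.7 FPKM of LL_Ctrl.

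T cell genes that were called were lower, and B cell and plasma cell genes gave few calls. Of 18 B cell genes 1 was called higher and of 16 plasma cell genes 2, with none lower in either list. Over all genes tested 10.0% were called higher and 2.38% lower. Of 27 T cell and intraepithelial lymphocyte genes 6 were called lower and none higher against HH_Ctrl (median -0.58) and 11 lay below all 6 controls, and of 28 tested against LL_Ctrl 13 were called lower (median -1.04). The 6 calls moved with the setting. None was left without HH_WBI 1, 1 without HH_Ctrl 1 or with a pseudocount of 1, and 2 without HH_Ctrl 3 or HH_WBI 3. The number was 7 without HH_Ctrl 2 or HH_WBI 2, under median-ratio scaling or after trend removal. Trbc2, a constant region of the T cell receptor beta chain, stood at 3.74, 5.89 and 4.28 FPKM in HH_WBI, 10.99, 8.21 and 11.4 FPKM in HH_Ctrl and 9.90, 8.85 and 11.3 FPKM in LL_Ctrl (-1.13 ± 0.21, adjusted p = 0.00601 with limma, and -0.995 without HH_WBI 1). Gzma, granzyme A of cytotoxic lymphocytes, stood at 40.01, 102 and 55.1 FPKM, below the 115 to 172 FPKM of the controls, with HH_WBI 2 close to the controls. It was called (-1.12, adjusted p = 0.0234 with limma) but missed the threshold when any library other than HH_WBI 2 was left out, with adjusted p of 0.0513 to 0.0693. B cell genes could not be read in the same way. Their median was -1.38 with none of 18 called lower, and -2.66 with 15 called lower without HH_Ctrl 2, the library that lacked them. With HH_Ctrl 3 left out the median was -0.79. Against LL_Ctrl, 2 of the 10 tested were called higher and none lower (median 0.02). Relative to the HH_Ctrl mean, the list median stood at -1.73 to -1.03 in HH_WBI and -1.73 to -1.08 in LL_Ctrl. HH_Ctrl 1 and 3 stood at 1.36 and 1.26, and HH_Ctrl 2 at -2.56. The only member called against HH_Ctrl with all libraries was the chemokine Cxcl13. Igkc and Jchain, transcripts of plasma cells, were called higher than in HH_Ctrl, by 1.02 and 1.11, with Jchain at 246, 239 and 359 FPKM below the 420 to 674 FPKM of LL_Ctrl. Neither was called without HH_Ctrl 2 or without HH_WBI 3, neither after trend removal, and Igkc not under median-ratio scaling.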

How the data were processed

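Total RNA of intestine was sequenced. The labels describe rRNA depletion and a stranded method and the paper's methods oligo(dT) beads, and which applies was not settled, so antisense and overlapping genes are uncertain. The authors deposited FPKM per gene made with StringTie v1.3.1, and the submitters' processing notes list 3 builds (mm8, mm39, GRCm39) and Bowtie 0.12.2, giving no roles, so no gene coordinates were taken from the files. The study itself used DESeq2 on counts, which were not used here. Values were transformed to log2(FPKM + 0.1), genes averaging 0.5 FPKM or more across both groups were kept, and limma 3.58.1 (R 4.3.3) with an intensity trend was fitted to each pair of groups without a replicate block. A call needed an adjusted p under 0.05 and a log2 difference beyond 1 in size. On simulated data this fit called 80% of genes changed by a log2 of 1.5, 97% of those changed by 2.5, and 4 unchanged genes (12760 genes in all). Noise was drawn independently for each gene, and the 200 changed genes were taken from those of higher level. Shifts shared by many genes of a library were not simulated, so these rates do not cover the libraries that stood apart. Summaries and plots used Python 3.11.15 with pandas 2.3.3, numpy 2.4.6 and matplotlib 3.10.9.

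The comparison and the 54 gene lists were chosen with earlier results of these data known. Genes were named by rule: the 8 largest differences in each direction beyond all 6 controls, the 4 largest in each direction that overlapped or fell short of LL_Ctrl (both at 5 FPKM or more on average), up to 4 members of each list with the smallest p, and Bax, Cdkn1a, H2ax, Il6, Il10, Mdm2, Mki67, Tnf and Trp53. Lct, Cd79a, Msln, Clu and other genes outside this rule were chosen after their values were seen. This rule named 223 genes, of which the text gives a part, and lists are otherwise summarised by counts. Alternatives were a pseudocount of 1, no filter, a replicate block, median-ratio scaling, removal of trends on GC content and length, all 9 libraries in one fit, the adjusted p alone, and each library left out.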

Additional observations from a re-analysis of the deposited data

How the results depend on the processing

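Against HH_Ctrl the 1280 higher and 304 lower genes became 686 and 191 with a pseudocount of 1, and 2817 and 1797 by the adjusted p alone. Removing trends on GC content and length gave 869 higher and 480 lower, median-ratio scaling 1056 and 451, no filter 1548 and 342, and 9 libraries in one fit 1358 and 334. Leaving out each library gave 970 to 1415 higher genes (lowest without HH_WBI 1, highest without HH_WBI 3) and 236 to 361 lower genes. Against LL_Ctrl the 631 and 634 genes became 382 higher with a pseudocount of 1, 1455 higher and 2606 lower by the adjusted p alone, and 490 to 739 higher and 510 to 745 lower with each library left out. For HH_Ctrl against LL_Ctrl a pseudocount of 1 gave 175 higher and 890 lower, trend removal 467 and 632, the adjusted p alone 1642 and 4005, and leaving out each library 251 to 380 and 1394 to 1571. Genes beyond all 6 controls numbered 592 higher and 342 lower with median-ratio scaling, and 541 and 348 with the trends removed. Of 140 named genes that were called, 99 kept the call under every alternative run, and none reversed. The median of 18 of the 54 lists changed sign under at least 1 alternative, among them 1 (adipose tissue genes) of the 24 lists with a median of at least 0.5 in size. The cause of these shifts was not tested.

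A replicate block gave 1322 higher and 325 lower genes and took the call from none of the 140. Same-numbered HH_WBI and HH_Ctrl libraries had correlations of deviations of 0.059, 0.172 and 0.239, and differently numbered ones -0.318 to 0.152. The sample labels state no pairing, so the main fit used no block, and whether the numbers pair libraries is not known. With 3 libraries a group and unknown depth, small differences of low genes could not be resolved.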

Other observations

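Some genes outside the groups above stood apart from both untreated groups. Lgmn, the lysosomal protease legumain, was listed at 113, 109 and 115 FPKM in HH_WBI, 34.9, 29.7 and 34.8 FPKM in HH_Ctrl and 40.5, 30.8 and 39.9 FPKM in LL_Ctrl, a log2 difference from HH_Ctrl of 1.76 ± 0.10 (adjusted p = 0.000283 with limma). Of 28 lysosomal genes 2 were called higher, Lgmn and Gusb (beta-glucuronidase, by 1.14), against 10.0% of all genes tested, and the median was 0.04. By the adjusted p alone 5 were higher and 2 lower, and 4 were called higher without HH_WBI 3. Dpp4, a peptidase of the brush border, was higher by 1.502, at 225, 204 and 310 FPKM against 77.8 to 99.6 FPKM in HH_Ctrl and 113 to 131 FPKM in LL_Ctrl, while the 27 brush border genes as a group had a median of 0.04. Dpp4 was not called once trends on GC content and length were removed. Gcg, which encodes the precursor of the gut hormone GLP-1, was the 1 enteroendocrine gene of 22 called, at 37.1, 33.3 and 53.04 FPKM against 7.06, 5.05 and 8.58 FPKM in HH_Ctrl and 24.1, 28.3 and 26.7 FPKM in LL_Ctrl.

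Other groups differed between HH_WBI and LL_Ctrl but not in the same way from HH_Ctrl. Of 13 inducible antimicrobial genes of the epithelium, 8 were called higher and 3 lower against LL_Ctrl (median 2.58) and 2 higher and 1 lower against HH_Ctrl (median 0.14). Reg3b, a secreted lectin chosen after its values were seen, was listed at 14040, 7653 and 9329 FPKM in HH_WBI, 6351, 13181 and 16090 FPKM in HH_Ctrl and 4413, 1291 and 829 FPKM in LL_Ctrl. Saa3, an acute-phase protein, was above both groups, at 5.81, 5.11 and 8.86 FPKM against 0.474 to 1.60 FPKM in HH_Ctrl and 0.363 to 1.08 FPKM in LL_Ctrl. Of 17 circadian clock genes 8 were called higher and 1 lower against LL_Ctrl (median 0.88) and 1 each way against HH_Ctrl (median 0.05). The calls against HH_Ctrl became none without HH_Ctrl 1, HH_Ctrl 2 or HH_WBI 1, and 5 higher and 2 lower without HH_Ctrl 3. Cry2, a repressor of the clock, was at 6.56, 7.35 and 6.89 FPKM in HH_WBI, 9.93, 8.79 and 11.03 FPKM in HH_Ctrl and 1.995, 2.19 and 2.29 FPKM in LL_Ctrl. The time of day of collection is not given, and its part was not tested.

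Atg9b, an autophagy gene named by the rule on largest changes, was listed at 7.56, 6.09 and 3.97 FPKM in HH_WBI and at 0.0770 to 0.107 FPKM in all 6 controls, a log2 difference from HH_Ctrl of 4.98 ± 0.30 (adjusted p = 0.000283 with limma). Fgf15, an ileal hormone also named by that rule, was at 3.27, 0.626 and 44.2 FPKM in HH_WBI and at most 0.196 FPKM in the controls, with its high value in the library that carried ileal transcripts. Dmbt1, a secreted mucosal glycoprotein, was at 319, 173 and 133 FPKM in HH_WBI, 714, 808 and 617 FPKM in HH_Ctrl and 401, 390 and 269 FPKM in LL_Ctrl, and overlapped LL_Ctrl. Igkv5-45, an immunoglobulin kappa variable segment, was at 5.65, 6.43 and 4.10 FPKM in HH_WBI, 0.314, 0 and 0.581 FPKM in HH_Ctrl and 1.92 to 2.73 FPKM in LL_Ctrl.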
